A study of Mus musculus with 6 samples.

Results

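Gene expression was compared between embryoid bodies (EBs) of the H2A.ZKD and H2A.ZWT mouse embryonic stem cell (ESC) lines after 3 days of differentiation (D3), with 1 RNA-Seq library per line. EBs are aggregates that ESCs form in suspension when leukemia inhibitory factor (LIF) is withdrawn, and H2A.Z is a histone variant that replaces H2A in nucleosomes near promoters. Values are RPKM, in which reads are divided by transcript length and by library depth, so that levels can be compared between genes. The genes described are those with at least 1 RPKM in either D3 library, which were 11956 of the 21639 entries of the deposited table. For each, the change is log2((H2A.ZKD + 1)/(H2A.ZWT + 1)), written below as the log2 change, and a gene is called higher or lower past 1.5-fold on this scale.

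The full set of libraries covered H2A.ZWT, H2A.ZKD and the acidic patch mutant H2A.ZAP3, each as ESCs (D0) and as EBs at D3, 1 library for each of the 6 conditions. The ESCs are of strain V6.5 (129SvJaexC57BL/6), in its KH2 derivative, and were last passaged without feeder fibroblasts. H2A.ZWT and H2A.ZAP3 cells carry a doxycycline-inducible transgene from a CMV promoter, fused to YFP and sorted for YFP, together with a lentiviral short hairpin against the 3′ UTR of endogenous H2A.Z. H2A.ZKD is the label of the cells given the hairpin as a knockdown of endogenous H2A.Z, and the sources used here do not state which hairpin was used, whether an expressed transgene was present, or whether each line is 1 clone. The question put to this pair is how EBs of the line labelled as a knockdown differ from EBs of the wild-type line.

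No spread between cultures can be given, because each condition has 1 library. No p-value was computed, and a difference below is a difference between these libraries. The intervals printed with some ratios are exact 95% intervals for counting error only. They are based on read numbers estimated from the RPKM, a transcript length and a depth. The length is the median over the annotated transcripts of a gene, coding ones where there are any, and another choice would change the read numbers. The depth was estimated as 20.8 M reads for H2A.ZWT and 25.9 M for H2A.ZKD. Copies made by PCR were not marked by molecular tags, so that several reads can stem from 1 molecule and the intervals are too narrow to that extent.

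The hairpins are shown because the knockdown rests on them and because of where they lie. Each matched the sense strand of the last of the 5 exons of *H2afz*, within its 3′ UTR, on the plus strand of chromosome 3 (NCBIM37, the assembly of mm9), sh#2 at chr3:137529455-137529475 and sh#5 at chr3:137529551-137529571. All 21 bases of each match, so none is set in capitals. The names are those of the sample labels, and the study's methods number the same sequences differently.
sh#2: aacagctgtccagtgttggtg
sh#5: aattagccttccaaccaacca

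*H2afz*, the gene that the hairpins target, had 258 RPKM in the H2A.ZWT D3 library and 236 RPKM in the library labelled H2A.ZKD, a ratio of 0.916 (counting interval 0.879 to 0.954). As ESCs the values were 279 and 343 RPKM, so the library labelled H2A.ZKD was the higher of the D0 pair. The level was thus slightly lower under the knockdown label at D3 and higher under it at D0. Reads from a transgene carry the same coding exons and the RPKM cannot tell them from endogenous transcripts. The study itself reports that the hairpins depleted endogenous H2A.Z in transgenic ESCs, by qRT-PCR and by western blot. *H2afv*, which encodes the second H2A.Z isoform, had 61.1 and 56.4 RPKM at D3. Of the 15 measured genes for H2A.Z and its exchange complexes, 0 passed 1.5-fold, against 3.92% in either direction over all genes, with a median log2 change of -0.11.

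At D3 most genes had similar values in the 2 libraries. Of the 11956 genes, 8638 (72.2%) lay within 1.2-fold, and the median log2 change was -0.03. Past 1.5-fold, 228 genes were higher in the library labelled H2A.ZKD (1.91% of those tested) and 241 were lower (2.02%), together 3.92%. The balance varied with the setting, with 227 higher and 146 lower when changes were taken relative to genes of like length, 205 and 147 relative to genes of like GC content, and 415 and 532 with a pseudocount of 0.1 RPKM. Small RNA genes made up 34 of the higher and 38 of the lower ones, and 49.0% of the 147 small RNA genes tested passed 1.5-fold, on transcripts that poly(A)-selected libraries sample poorly. They were left out of what follows, which leaves 194 higher and 203 lower genes. Of these, 43 of the higher and 14 of the lower genes passed 2-fold, so that most of the larger differences were toward higher values in H2A.ZKD EBs. Among the 8465 genes with at least 5 RPKM, 119 (1.41%) were higher and 115 (1.36%) lower, together 2.76%. The genes nearest the limit were *Mvd* (log2 change 0.59) and *Erf* (-0.59) just past it and *Pls1* (0.58) and *Ndufa2* (-0.58) just short of it.

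**Figure D1:**
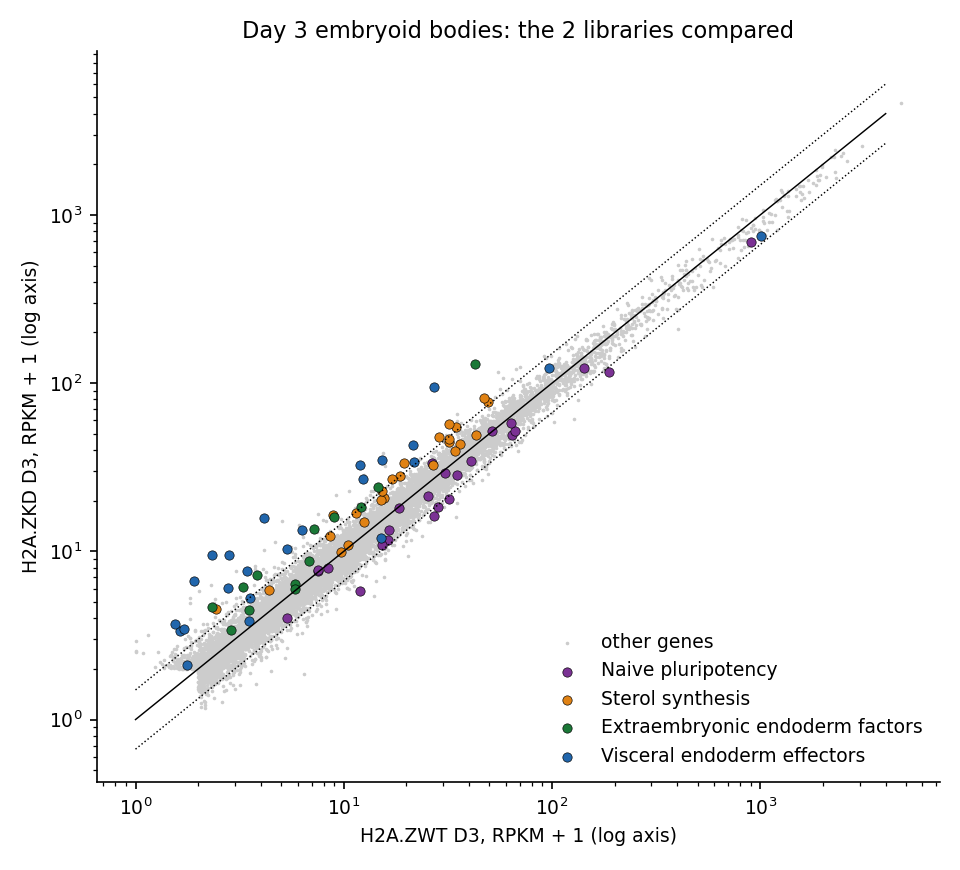
RPKM + 1 of each gene in the H2A.ZWT D3 library (horizontal, log axis) and the H2A.ZKD D3 library (vertical, log axis), with equality as a solid line, 1.5-fold as dotted lines, and 4 gene lists in colour. Most visceral endoderm effectors and endoderm factors lie above the upper dotted line, sterol synthesis genes lie between equality and just above that line, and naive pluripotency genes lie mostly below equality.

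Among the gene lists, that of visceral endoderm effectors had the largest median log2 change. The visceral endoderm is an epithelium that surrounds the early embryo and, in culture, forms on the surface of EBs. It takes up maternal proteins by endocytosis and secretes the serum proteins and lipoproteins that the liver makes later. Its precursor, the primitive endoderm, is set up by GATA factors and SOX17, and HNF4A then drives the secretory genes. A bulk library cannot tell more cells of a type from more RNA per cell, and this holds for each list below.

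Of the 23 measured visceral endoderm effectors, 17 were higher in the library labelled H2A.ZKD and 0 were lower, against 1.91% higher over all genes. Their median log2 change was 1.09, and it was -0.03 over all genes. Of the list, 21 genes had positive values (45.3% over all genes), and 20 had their highest level of all 6 libraries in H2A.ZKD EBs. Some members were under 1 RPKM in H2A.ZWT EBs and were measured only through the H2A.ZKD library, such as *Apob* (0.904 and 5.62 RPKM), *Apoa4*, *Apoc2* and *Afp*. For such members the filter itself favours higher values, so the counts and the median are partly set by it. The members were chosen with results of these data known, so the count is a description.

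The secreted apolipoproteins were among the genes furthest apart. *Apoa1* (chr9:46036713-46038549), the main protein of high density lipoprotein, had 1.32 RPKM in H2A.ZWT EBs, 8.57 in H2A.ZKD EBs and 0.896 in H2A.ZAP3 EBs, and at most 0.288 in the 3 ESC libraries. The ratio of H2A.ZKD to H2A.ZWT was 6.50, with a counting interval of 4.45 to 10.1 on an estimated 230 and 28 reads. Only the H2A.ZKD D3 library was high, and the 5 others lay at or under 1.32 RPKM.

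*Apob* (chr12:7984483-8023645), the structural protein of the lipoproteins that carry triglyceride, followed with 0.904, 5.62 and 0.714 RPKM in H2A.ZWT, H2A.ZKD and H2A.ZAP3 EBs, and under 0.1 RPKM in all ESCs. Its ratio was 6.22 (5.24 to 7.45). *Apoa4* had 0.545, 2.71 and 0.368 RPKM in the same EBs, *Apoc2* 0.703, 2.44 and 0.259, and *Apom* 1.79, 5.09 and 2.22. Each of them was highest in H2A.ZKD EBs. *Apoe* and *Apoa2*, apolipoprotein genes already expressed in ESCs, were the 2 members with negative values: *Apoe* had 1009 and 752 RPKM in H2A.ZWT and H2A.ZKD EBs, and *Apoa2* had 14.1 and 10.95.

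The carriers of retinol and thyroid hormone had the same order of EB libraries as *Apoa1*. *Rbp4* (chr19:38191110-38199811), the serum carrier of retinol, had 3.16 RPKM in H2A.ZWT EBs, 14.7 in H2A.ZKD EBs and 1.57 in H2A.ZAP3 EBs, beside 1.22, 0.932 and 1.42 in the matching ESCs. *Ttr* , which encodes transthyretin, had 1.81, 8.57 and 1.10 RPKM in the EBs and at most 0.043 in the ESCs. *Afp*, the fetal counterpart of albumin, was low throughout, with 0.633, 2.38 and 0.192 RPKM in the EBs. These low values rest on few reads, an estimated 27 and 129 for *Afp*, whose ratio of 3.76 has an interval of 2.52 to 6.05.

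The endocytic receptor genes were expressed at higher levels. *Cubn* (chr2:13197965-13413503), which encodes cubilin, the receptor for vitamin B12 complexes and apolipoprotein A-I, had 26.2, 93.3 and 34.6 RPKM in H2A.ZWT, H2A.ZKD and H2A.ZAP3 EBs. In ESCs it had 2.64 and 3.95 RPKM in H2A.ZWT and H2A.ZKD and 12.03 in H2A.ZAP3. Its D3 ratio was 3.56 (3.44 to 3.69). *Amn*, which encodes the membrane anchor of cubilin, had 14.2, 33.7 and 17.6 RPKM in the EBs, and *Lrp2*, which encodes megalin, had 20.5, 41.7 and 21.6. For both genes H2A.ZKD EBs were the highest of the EBs, and H2A.ZAP3 EBs were close to H2A.ZWT EBs.

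Further members covered other functions of the tissue. *Ctsh*, a lysosomal protease, had 11.01 and 31.5 RPKM in H2A.ZWT and H2A.ZKD EBs. *Aqp8*, a water channel, had 11.4 and 25.9, and *Slc39a8*, a zinc and manganese importer, had 5.29 and 12.3. *Cited1*, a transcriptional coregulator, had 2.45 and 6.62, and *Soat2*, which esterifies cholesterol, had 4.31 and 9.35. *Spink3*, a secreted protease inhibitor, passed 1.5-fold with 20.8 and 32.8, while *Ihh*, the hedgehog ligand of this tissue, stayed just short of it with 2.54 and 4.29 (log2 change 0.58). *Bmp2* (0.760 and 1.10), *Trf* (2.51 and 2.88) and *Emb* (96.2 and 122) did not pass it, and 4 further entries of the list were under 1 RPKM in both libraries.

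The factors upstream in this lineage were also higher, by less. Of 13 measured extraembryonic endoderm factors, 8 were higher (1.91% over all genes) and 0 lower. All 13 had positive values (45.3% over all genes), and the median log2 change was 0.72. In 12 of them H2A.ZKD EBs had the highest value of the 6 libraries. *Dab2* (chr15:6249789-6390709), an endocytic adaptor needed in visceral endoderm, had 9.25 and 10.2 RPKM in H2A.ZWT and H2A.ZKD ESCs and 41.8, 129 and 70.3 in H2A.ZWT, H2A.ZKD and H2A.ZAP3 EBs. Its ratio was 3.08 (2.89 to 3.29), on an estimated 1197 and 4595 reads. For *Dab2* the H2A.ZAP3 EBs lay between the other EBs.

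Transcription factors of the lineage had smaller ratios. *Hnf4a* had 1.32, 3.68 and 1.135 RPKM in H2A.ZWT, H2A.ZKD and H2A.ZAP3 EBs, a ratio of 2.80 (2.15 to 3.68). *Sox7* had 2.83, 6.27 and 4.56 RPKM, and *Foxq1* 7.96, 15.1 and 10.0. The GATA factors at the start of the lineage were closer, *Gata4* with 13.7, 23.2 and 13.3 RPKM and *Gata6* with 11.1, 17.4 and 12.3, ratios of 1.70 (1.53 to 1.88) and 1.57 (1.44 to 1.72). *Sox17* (5.84 and 7.75 in H2A.ZWT and H2A.ZKD EBs), *Foxa2* (2.499 and 3.45) and *Eomes* (1.86 and 2.39) did not pass 1.5-fold. *Pdgfra*, the receptor that marks primitive endoderm and mesoderm alike, had 6.21, 12.5 and 6.85 RPKM.

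**Figure D2:**
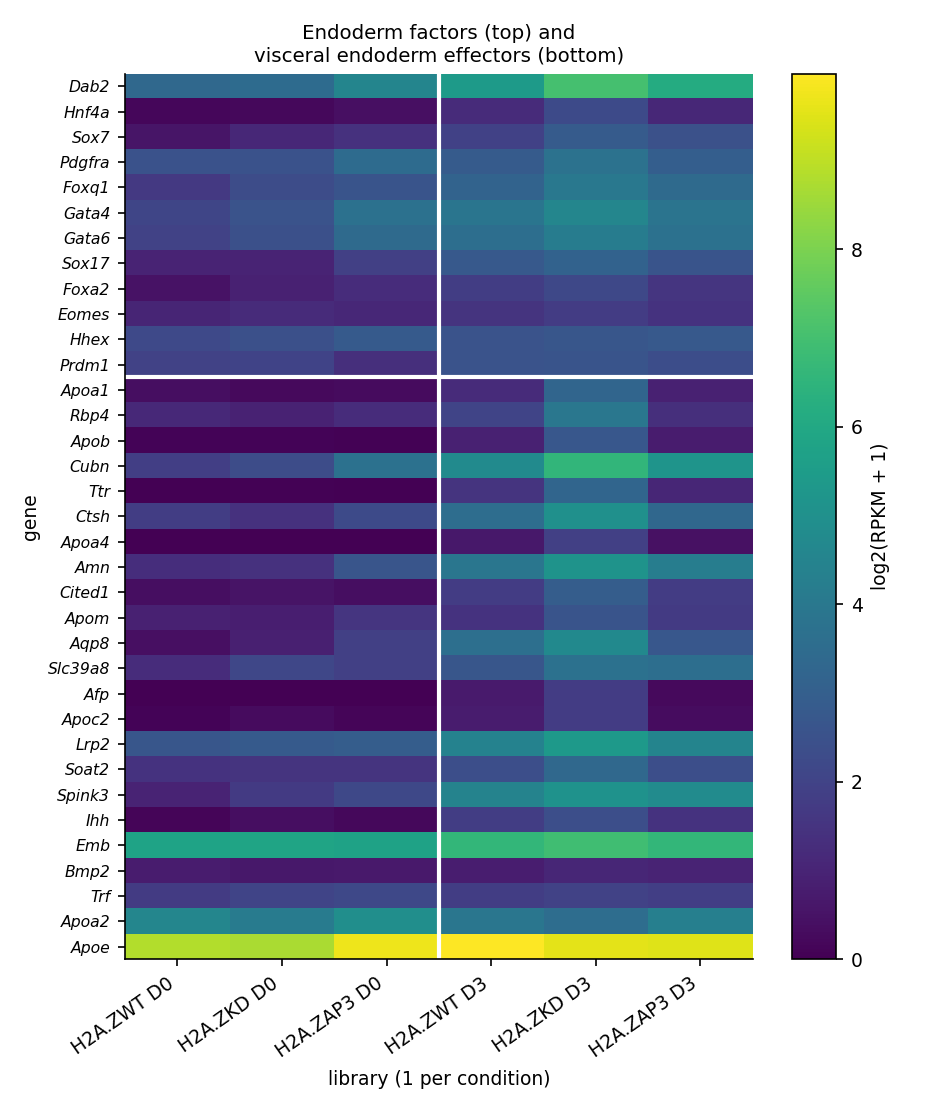
Log2(RPKM + 1) of endoderm factors (top block) and visceral endoderm effectors (bottom block) in the 6 libraries, 1 column per library and genes ordered by their D3 change. The H2A.ZKD D3 column is the brightest of the row for each factor drawn except *Hhex* and for 20 of 23 effectors. *Apoe* and *Apoa2* at the foot are exceptions.

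In the D0 libraries, which the D3 comparison does not use, the effectors differed little and the factors differed in the same direction. Over all genes in the D0 pair, 1.65% were higher and 44.7% had positive values. Of the 12 effectors measurable in ESCs, 2 were higher in H2A.ZKD and the median log2 change was 0.08. The 9 factors measurable in ESCs all had positive values, with 1 past 1.5-fold (*Foxq1*, 2.15 and 3.97 RPKM) and a median of 0.23. *Gata4* had 3.24 and 4.94 RPKM in H2A.ZWT and H2A.ZKD ESCs, and *Gata6* 2.96 and 4.38. H2A.ZAP3 ESCs had more of both, 12.1 and 9.84 RPKM.

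Basement membrane genes, which endoderm of EBs lays down as a sheet beneath itself, were higher by a smaller factor. Of 18 genes, 6 were higher and 1 was lower, against 1.91% and 2.02% over all genes, and the median log2 change was 0.40. *Lama1*, the laminin chain of the earliest basement membranes, had 69.0, 123 and 64.7 RPKM in H2A.ZWT, H2A.ZKD and H2A.ZAP3 EBs. *Col4a1* and *Col4a2*, neighbouring genes for the chains of type IV collagen, had 90.9, 144 and 78.4 RPKM and 52.3, 81.6 and 43.5 RPKM. H2A.ZKD EBs were the highest of the EBs in each of the 3 genes.

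The enzymes that modify collagen followed, *P4ha1* with 31.6 and 57.1 RPKM in H2A.ZWT and H2A.ZKD EBs, *Plod2* with 34.5 and 53.7 and the chaperone *Serpinh1* with 92.2 and 139. *Lamb1* (107 and 160) and *Lamc1* (97.9 and 144), the partner chains of *Lama1*, reached log2 changes of 0.58 and 0.55 and did not pass 1.5-fold. *Col18a1*, the precursor of endostatin, was the exception with 73.3 and 47.8 RPKM. The D0 median of the list was 0.05.

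Genes of cholesterol synthesis formed the other large group. SREBP2 turns these genes on when the membrane is low in sterol. All 25 measured sterol genes had positive log2 changes, 10 of them past 1.5-fold (1.91% over all genes) and 0 lower, and the median was 0.54. Over all genes 45.3% were above 0. The smallest change was 0.02 (*Ebp*).

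The pathway was covered from its start to its end. *Hmgcs1*, the first committed enzyme, had 84.2 and 100.4 RPKM in H2A.ZWT and H2A.ZKD ESCs and 33.7 and 53.9 in the EBs. The H2A.ZKD EBs thus lay above the H2A.ZWT EBs and below both ESC libraries.

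In the isoprenoid steps *Mvd* had 17.7 and 27.1 RPKM in H2A.ZWT and H2A.ZKD EBs, *Idi1* had 27.7 and 47.1, and *Fdps* had 48.2 and 76.4. In the sterol steps *Lss*, which closes the rings, had 16.1 and 25.9, *Cyp51*, which removes the methyl group from lanosterol, had 18.5 and 32.5, and *Sc4mol*, the next demethylase, had 31.2 and 56.4. *Insig1*, which holds SREBP in the endoplasmic reticulum and is itself an SREBP target, had 46.2 and 80.5 RPKM, and *Stard4*, a sterol carrier, had 7.88 and 15.5. *Srebf2* itself had 42.0 and 48.4 (log2 change 0.20).

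The order of the libraries differed from that of the endoderm genes. In 0 of the 25 sterol genes did H2A.ZKD EBs have the highest value of all 6 libraries, since an ESC library was higher in each. H2A.ZAP3 EBs had values near those of H2A.ZKD EBs for many of them, such as 60.4 RPKM for *Sc4mol*, 50.8 for *Idi1* and 80.1 for *Fdps*. H2A.ZWT EBs were the lowest of the EBs in each gene of the list. At D0, 23 of 25 sterol genes had positive values (44.7% over all genes in that pair), with a median of 0.28. Past 1.5-fold, 2 were higher (1.65% over all genes), among them *Fdps* (96.6 and 156 RPKM).

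Fatty acid synthesis genes had the same direction. All 17 were positive (45.3% over all genes), 3 were higher (1.91% over all genes), and the median was 0.40. *Scd1*, the desaturase that makes oleate, had the largest difference with 40.8 and 45.9 RPKM in H2A.ZWT and H2A.ZKD ESCs and 11.4 and 27.5 in EBs, a ratio of 2.40 (2.25 to 2.57). *Aacs* (4.84 and 8.60 in EBs) and *Fads2* (21.2 and 33.7) followed, while *Fasn* (36.0 and 48.3) and *Acaca* (9.58 and 12.8), the enzymes that build the chain, stayed under 1.5-fold.

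**Figure D3:**
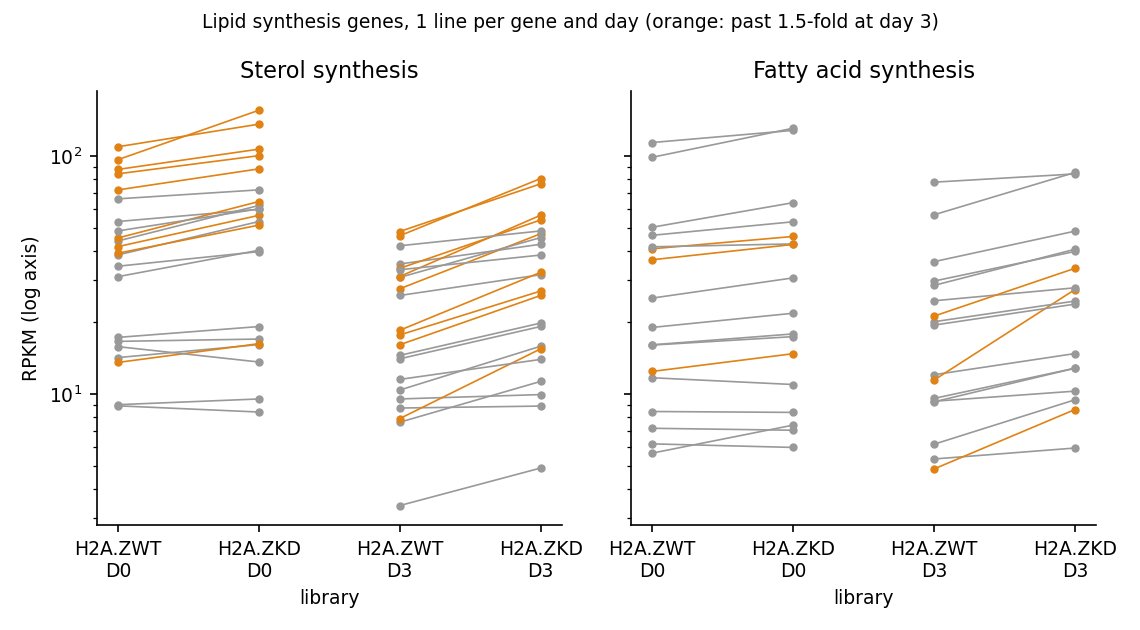
RPKM (log axis) of the sterol synthesis genes reported here (left) and the 17 fatty acid synthesis genes (right) in H2A.ZWT and H2A.ZKD libraries, with a line joining the 2 libraries of a day for each gene, in orange where the D3 change passed 1.5-fold. Every D3 line slopes upward, and each orange sterol gene sits lower at D3 than at D0 within the same line.

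Of 36 glycolysis and hypoxia genes, 6 were higher and 0 lower, against 1.91% and 2.02% over all genes, with a median log2 change of 0.14. The 6 were mostly targets of the hypoxia-inducible factor. *Adm* had 1.38 and 3.94 RPKM in H2A.ZWT and H2A.ZKD EBs, *Egln1*, a prolyl hydroxylase that marks HIF for destruction, had 12.7 and 21.7, and *Bnip3* had 55.5 and 90.7. *Ero1l* (30.0 and 48.3) and *Aldoc* (10.6 and 16.8) completed the group together with *P4ha1*. *Vegfa*, another HIF target, had 24.3 and 23.03, and the glycolytic genes *Pgk1* (584 and 720) and *Ldha* (510 and 627) did not pass 1.5-fold.

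The retinoic acid pathway had genes on both sides. Retinoic acid is made from retinol by RDH and ALDH enzymes and removed by CYP26. Of 14 measured genes 3 were higher and 2 lower, against 1.91% and 2.02% over all genes, with a median of -0.30, which was -0.070 over those with at least 5 RPKM and -0.17 relative to genes of like GC content. The higher ones were *Rbp4*, *Cyp26a1* with 4.06, 14.0 and 3.82 RPKM in H2A.ZWT, H2A.ZKD and H2A.ZAP3 EBs, and *Rdh10* with 2.71, 5.30 and 3.27. *Crabp2*, which carries retinoic acid to its receptors, was lower with 14.8, 7.95 and 11.1, and *Dhrs3*, which turns retinal back to retinol, was lower with 2.76, 1.302 and 2.31. *Rara* (11.9 and 9.19) and *Rxrb* (25.5 and 19.08), receptors of the pathway, did not pass 1.5-fold.

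Of 14 measured core pluripotency genes 0 passed 1.5-fold (3.92% in either direction over all genes), and the median log2 change was -0.08. Negative values were found for 10 of them (54.7% over all genes) and positive values for 4. *Pou5f1*, which encodes OCT4, had 448 and 358 RPKM in H2A.ZWT and H2A.ZKD EBs, *Sox2* had 186 and 141, and *Zfp42* had 141 and 122, while *Trim71* had 22.3 and 28.8 and *Sall4* 46.2 and 52.1. The EBs were therefore still rich in pluripotency transcripts at D3.

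Of 24 measured naive pluripotency genes, 5 were lower (against 2.02% of all genes) and 0 higher, and 20 had negative values (54.7% over all genes), with a median of -0.30. *Calcoco2* had 10.9 and 4.79 RPKM in H2A.ZWT and H2A.ZKD EBs, *Tcl1*, a cofactor of AKT, 26.1 and 15.1, *Spp1*, which encodes osteopontin, 186 and 115, *Nr0b1*, a nuclear receptor that binds OCT4, 31.0 and 19.5, and *Tcea3* 27.4 and 17.2. *Klf2* (63.0 and 48.3), *Esrrb* (65.5 and 51.0) and *Klf4* (17.4 and 17.1) did not pass 1.5-fold, and *Dppa3* had 25.5 and 32.5. The list median was also -0.30 in the D0 pair, which shares no library with the D3 pair.

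Epiblast genes, which mark the next state of pluripotent cells, were near equality. Of 23 genes 2 were higher (1.91% over all genes) and 0 lower, with a median of -0.05. *Fgf5* (7.34 and 7.45 RPKM), *Otx2* (22.3 and 24.6) and *Pou3f1* (7.26 and 7.65) differed little, and *Dnmt3b* had 71.2 and 96.0. *Cldn6*, a tight junction gene that endoderm shares, had 63.4 and 105, and *Lef1*, a Wnt effector, had 1.298 and 3.45.

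Other germ layer lists had few members to measure. Of 24 primitive streak and mesoderm genes 4 reached 1 RPKM, and 1 of these (*Pdgfra*) was higher (1.91% over all genes). Of 12 measured neural genes 11 had negative values (54.7% over all genes) and 1 was lower (2.02% over all genes), with a median of -0.32. That gene was *Pax6*, with 6.05, 3.19 and 7.80 RPKM in H2A.ZWT, H2A.ZKD and H2A.ZAP3 EBs, and *Sox1* had 5.61 and 5.11 and *Nes* 6.32 and 4.56 in the first pair. In the D0 pair the neural median was 0.08. The single *Hox* gene above 1 RPKM, *Hoxc13*, had 0.919 and 1.09 RPKM.

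The 15 genes with the most negative log2 changes among those with at least 5 RPKM had varied functions. *Slpi*, a secreted protease inhibitor, came first among them, with 1.44, 3.34 and 14.0 RPKM in the 3 ESC libraries and 5.42, 0.866 and 7.16 in H2A.ZWT, H2A.ZKD and H2A.ZAP3 EBs. *Trim54* had 12.9, 4.46 and 6.35 RPKM in the EBs and *Trim63* had 6.82, 3.24 and 3.19, both of which encode ubiquitin ligases of muscle. *Id4*, an inhibitor of helix-loop-helix factors, had 8.22, 3.55 and 3.27, while *Id1* of the same family was higher, with 4.05, 7.67 and 8.64.

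*Gpa33*, which encodes an intestinal surface antigen, had 13.2, 5.62 and 4.85 RPKM in the EBs, *Dusp27* 5.69, 2.61 and 2.27, *Col9a2*, a cartilage collagen, 5.29, 2.26 and 2.18, and *Ildr1* 7.35, 3.41 and 5.26. *Prex2*, a Rac exchange factor, had 19.3, 8.41 and 17.0. The entry whose symbol reads 1-Sep lies at chr7:134357956-134361959, where the annotation has *Sept1*, and had 33.6, 15.02 and 20.2. It is the 1 of the 15 lowest genes that was also lower than 1.5-fold in the D0 pair, with 29.2 and 11.8 RPKM in H2A.ZWT and H2A.ZKD ESCs.

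Stress and mitochondrial genes completed the 15. *Atf5*, a factor of the amino acid response, had 14.5 and 6.07 RPKM in H2A.ZWT and H2A.ZKD EBs, and *Nupr1*, a stress-induced chromatin protein, had 22.7 and 11.3. Over the 33 measured genes of the ATF4 response these 2 passed 1.5-fold (2.02% were lower over all genes), 28 had negative values (54.7% over all genes), and the median was -0.19. *Asns*, a main target, had 156 and 116, and *Atf4* itself 104 and 98.0. *Atp5k*, a subunit of ATP synthase, had 126 and 60.2, and *Lars2*, the mitochondrial leucyl-tRNA synthetase, had 401 and 208.

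Among 81 nuclear oxidative phosphorylation genes 3 were lower (*Atp5k*, *Ndufa11* and *Ndufb2*), 65 had negative values and the median was -0.13. Among 84 cytoplasmic ribosomal protein genes 1 was lower (*Rpl10l*, 3.72 and 2.02 RPKM), 66 had negative values and the median was -0.12. Over all genes 2.02% were lower and 54.7% had negative values. These genes have short transcripts, with medians of 955 and 855 bases, and both lists moved toward 0 when each change was taken relative to genes of like length, to -0.06 and -0.03. The part of transcript length in the medians of these lists was not tested.

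Of the 15 highest genes with at least 5 RPKM, 7 were in none of the lists described above. *Tmprss2*, a membrane protease, had 1.31 and 5.28 RPKM in H2A.ZWT and H2A.ZKD EBs, *Dpp4*, a peptidase, 3.68 and 10.4, *Pga5*, a pepsinogen, 3.15 and 9.22, and *Klb*, the coreceptor for endocrine FGFs, 2.03 and 6.66. *Clic6*, an ion channel protein, had 8.20 and 20.5, *Nostrin*, an endocytic adaptor, 5.07 and 13.3, and *Amot*, a regulator of the Hippo pathway, 14.5 and 37.2. In H2A.ZWT and H2A.ZKD ESCs each of these 7 genes was at or under 5.21 RPKM.

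Signalling lists gave at most 2 genes each, against 1.91% higher and 2.02% lower over all genes. In the Wnt pathway 2 of 20 genes were higher, *Lef1* and the secreted inhibitor *Dkk1* (3.62 and 7.03 RPKM), with a median of -0.01. In the BMP pathway 1 of 18 was higher (*Id1*) and 1 lower (*Id4*). In the FGF and ERK list 1 of 28 was lower (*Etv1*, 4.78 and 2.84), and in the Nodal and Notch lists 0 of 18 each passed 1.5-fold. Cell cycle genes (27), p53 targets (23), DNA methylation genes (16), H3K4 methyltransferase genes (17), LIF pathway genes (14), unfolded protein genes (23), metal response genes (15), SRF and YAP targets (22) and housekeeping references (12) also had 0 past 1.5-fold.

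In the next lists 1 to 3 genes were lower, against 2.02% over all genes. *Ring1* of the Polycomb complexes had 7.23 and 3.84 RPKM in H2A.ZWT and H2A.ZKD EBs (1 of 28 lower). Of 27 imprinted genes 3 were lower, *Ndn* (5.59 and 2.80), *Mest* (3.23 and 1.36) and *Mkrn3* (1.92 and 0.835). Of 18 germline genes silenced by methylation 2 were lower, *Tex19.1* (18.9 and 10.6) and *Stk31* (2.24 and 1.12). Of 20 MHC class I and interferon genes 2 were lower, *Ifitm1* (176 and 116) and *Psmb8* (1.73 and 0.504). *Cldn4* (70.1 and 43.7) was the 1 lower epithelial gene of 20, beside *Cldn6*, and *Cd44* (1.13 and 0.290) and *Lgals1* (68.7 and 43.5) were the 2 lower of 14 mesenchymal genes.

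Over the lists that follow, the shares to compare with are again 1.91% higher and 2.02% lower over all genes. Of 9 measured trophectoderm genes *Plac8* was higher (4.56 and 9.59 RPKM) and *Sct* lower (1.145 and 0.167). Of 9 feeder fibroblast and matrix genes *Timp3* was higher (2.55 and 6.47) and *Thy1* lower (9.19 and 5.48), with a median log2 change of -0.40, which was -0.23 over those with at least 5 RPKM and -0.60 with a pseudocount of 0.1 RPKM. Of 7 endothelial and blood genes *Lmo2* was lower (1.86 and 0.791), and of 7 chemokine and cytokine genes *Cxcl10* was higher (0.376 and 1.08) and *Spp1* lower. Of 36 replication-dependent histone genes, whose transcripts mostly lack a poly(A) tail, 1 was higher and 2 were lower, with a median of 0.00, while 23 of 61 were higher in the D0 pair (1.65% over all genes). Of 3 measured genes of the 2-cell-like state 0 passed 1.5-fold, and of 4 X and Y linked genes *Eif2s3y* was lower (2.17 and 0.594).

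**Figure D4:**
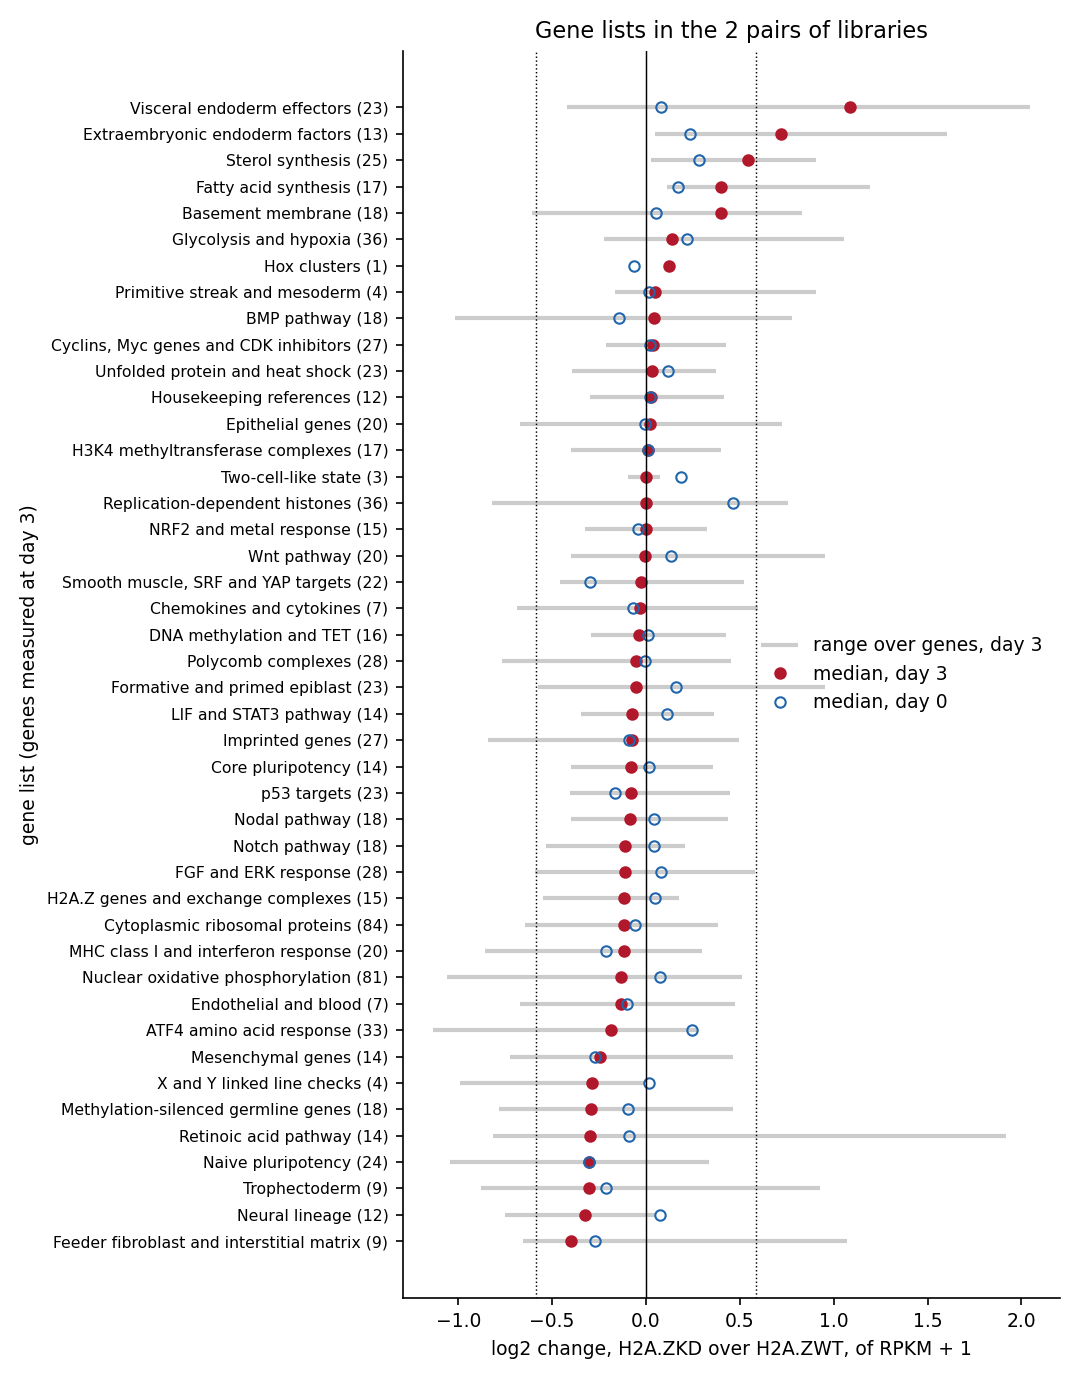
Median log2 change of each gene list between H2A.ZKD and H2A.ZWT at D3 (red) and D0 (open blue), with the range over genes at D3 (grey), the number measured at D3 in brackets and dotted lines at 1.5-fold. The visceral endoderm and extraembryonic endoderm lists are the only ones whose D3 median passes 1.5-fold.

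Marker sets of several cell types, chosen with earlier results of these data known, were summed in both D3 libraries. Of 7 feeder fibroblast markers 3 reached 1 RPKM in either D3 library, and their summed level was 12.7 RPKM in H2A.ZWT and 7.23 in H2A.ZKD. Without *Thy1* (9.19 and 5.48), the collagens were near their floor, *Col1a1* with 1.54 and 0.923 RPKM and *Col1a2* with 1.298 and 0.591. The 8 endoderm markers summed to 79.0 and 203 RPKM, of which *Dab2* alone held 41.8 and 129. *Dab2*, *Ttr* and *Apoa1* of this set are among the genes described above, so the sum is not separate from them. The 3 pluripotency markers summed to 775 and 622. Trophectoderm markers summed to 4.69 and 2.997 RPKM and blood and endothelial markers to 1.42 and 1.48. All 4 neural markers reached 1 RPKM, with sums of 34.6 and 27.9, and the 4 primed epiblast markers summed to 108 and 136. Streak and mesoderm markers, 1 of 4 at 1 RPKM or more, summed to 2.88 and 3.25. The part of feeder RNA in the lower mesenchymal genes was not tested.

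Transcript length and base composition moved with the D3 change. Over the 195 lower genes with an annotated length the median was 1810 bases, against 2841 over 186 higher ones and 2945 over all genes. Median GC content was 54.1% over 186 lower genes, against 49.4% over 181 higher ones and 50.5% over all genes. Genes were split by GC content into 5 bins of like size. In the bin richest in GC the median D3 change was -0.13 with 2.59% of genes lower, and in the poorest it was 0.08 with 1.05% lower. The D0 pair ran the other way, from 0.01 in the richest to -0.09 in the poorest. Taken relative to genes of like GC content, the endoderm factor median was 0.85, the sterol median 0.53 and the naive pluripotency median -0.25. The part of length and GC content in the other results was not tested.

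**Figure D5:**
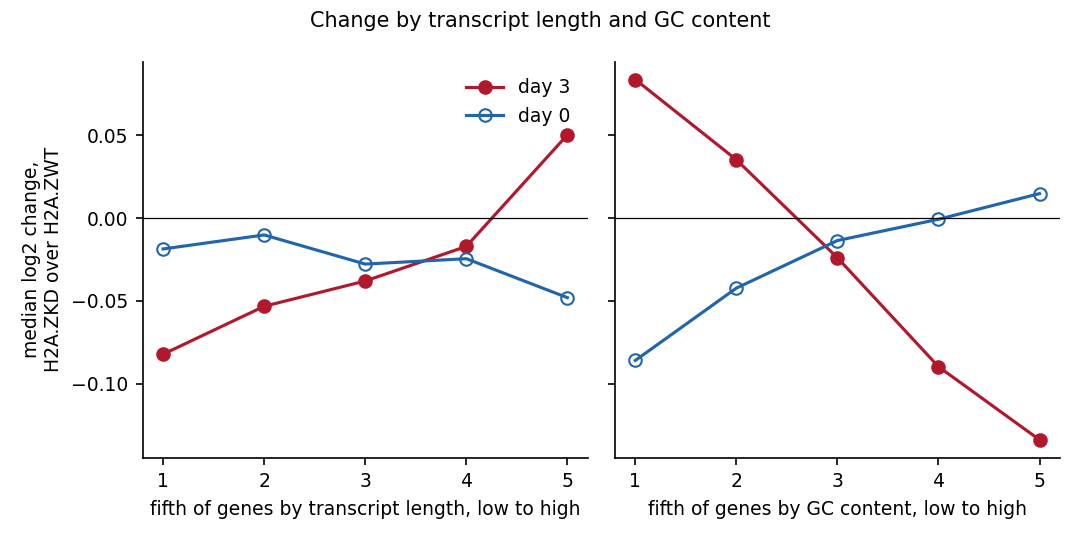
Median log2 change between H2A.ZKD and H2A.ZWT in 5 bins of genes by transcript length (left) and GC content (right), for the D3 pair (filled red) and the D0 pair (open blue). The D3 medians run from 0.08 down to -0.13 with rising GC content, and the D0 medians run the opposite way over a smaller range.

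The D0 pair, which shares no library with the D3 pair, gives the same genes in ESCs. Of the 194 higher genes 52 were under 1 RPKM in both ESC libraries, and of the other 142 genes 83 (58.5%) were above 0 at D0, with 11 past 1.5-fold higher (7.75%), 4 lower (2.82%) and a median of 0.09. Of the 203 lower genes 19 were under 1 RPKM in ESCs, and of the other 184 genes 107 (58.2%) were below 0 at D0, with 19 past 1.5-fold lower (10.3%), 11 higher (5.98%) and a median of -0.09. Over the 11409 genes measured at both days, small RNA genes left out, 44.7% were above 0 and 55.3% below, 102 (0.894%) were past 1.5-fold higher and 162 (1.42%) lower, and the median was -0.03. Most genes called at D3 were thus not called at D0, while their calls at D0 were a larger share than over all genes in the same and in the opposite direction. Over all 12067 genes tested at D0, small RNA genes included, 1.65% were higher and 2.04% lower, together 3.69%. Of the higher genes 140 had their highest value of the 6 libraries in H2A.ZKD EBs, and of the lower ones 85 had their lowest value there.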

How the data were processed

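RNA-Seq covered 6 libraries, 1 per condition. The H2A.ZKD and H2A.ZWT D3 columns were compared. The authors selected poly(A) RNA, made TruSeq libraries, mapped reads in single-end mode onto mm9 using TopHat with Bowtie 0.12.7 (at most 2 mismatches and 20 locations), quantified genes with Cufflinks 1.3.0 and deposited the RPKM. The submitters' processing notes give TopHat 1.14. The table also holds 6 columns of the authors' log2 ratios between lines, which were not used. The counting of strand is not given in the sources used here, and reads matching several genes may be shared among them. Log2 changes used a pseudocount of 1 RPKM and genes with at least 1 RPKM in either column. Starts were raised by 1.

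Lengths, GC content and exons come from GENCODE on NCBIM37, found for 20844 of 21639 entries. Of these entries 420 share a symbol, and lists used the one with the highest mean. Depth was estimated from the steps of the lowest values on 3696 genes with a single annotated transcript of over 1500 bases. Several estimators were tried, and this one was corrected after its test on simulated data. Members, the 44 lists and other choices were made with earlier results of these data known. Named genes are the 15 highest and 15 lowest with at least 5 RPKM, *H2afz* and *H2afv*, up to 4 members per list past 1.5-fold (otherwise up to 3 of the highest level), and the genes of each pathway described. The alternatives were other pseudocounts, filters, thresholds, centring, and summing entries of 1 symbol, and, added after the data were seen, centring within 10 bins of length or GC content, leaving out small RNA genes, and the alternatives for the D0 pair. The scripts were tested on simulated data. Software was Python 3.11.15 with pandas 2.3.3, numpy 2.4.6, matplotlib 3.10.9 and scipy 1.17.1. No test was made, for want of replicates. Some genes are counted in their lists but not reported here.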

Additional observations from a re-analysis of the deposited data

Results flagged for a closer look

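The gap between the lines passed 1.5-fold in opposite directions at D0 and D3 for 8 of the genes named here, and for 1 gene list the medians were of opposite sign and both at least 0.1 in size. Smaller reversals, such as *Atf5* (-1.14 and 0.56), are not listed. The difference between the days was not tested, since each condition has 1 library. The median log2 change of the ATF4 amino acid response genes was -0.19 at D3 and 0.25 at D0. *Slpi* had log2 changes of -1.78 at D3 and 0.83 at D0, *Prex2* of -1.11 and 0.74, and *Atp5k* of -1.06 and 0.67. *Lars2* had -0.95 at D3 and 1.43 at D0, where the H2A.ZKD ESCs held 932 RPKM and the other libraries between 208 and 401. *Ndufb2* had -0.61 and 0.69, and the linker histone gene *Hist1h1b* -0.82 and 0.70, the latter at 1.16 RPKM or less at D3. *Taf15* had -0.76 and 0.68. *Timp3*, an inhibitor of matrix proteases, went the other way, with 1.07 at D3 and -0.74 at D0.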

How the results depend on the processing

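With 1 library per condition, no replicate was left out and no spread between cultures is known, so a stable value under other settings says nothing of repeat cultures. No paired analysis was possible because no test was made.

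The 228 higher and 241 lower genes became 415 and 532 with a pseudocount of 0.1 RPKM, 444 and 583 with 0.001 RPKM, 136 and 131 with at least 5 RPKM, and 70 and 45 past 2-fold. The lower count fell to 146 when changes were centred within 10 bins of transcript length and to 147 within 10 bins of GC content. Under the other settings the counts stayed within 1.5 times. With a pseudocount of 0.1 RPKM the list medians became 1.24 (visceral endoderm), -0.60 (feeder), -0.25 (endothelial and blood) and -0.50 (X and Y linked). With at least 5 RPKM they became 0.91 (primitive streak, 1 gene), -0.047 (trophectoderm), -0.23 (feeder), -0.31 (endothelial and blood), -0.070 (retinoic acid), -0.41 (germline) and 0.031 (imprinted). Within 10 bins of GC content they became 0.85 (endoderm factors), 0.16 (primitive streak), -0.18 (trophectoderm), -0.30 (feeder), -0.012 (FGF and ERK), -0.17 (retinoic acid), -0.76 (X and Y linked) and 0.15 (histones). The cause was not tested. No list median of at least 0.1 in size changed sign.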

Other observations

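The genes and families below were chosen after their values were seen, and they are values with no test. Several genes for lysosomal breakdown, for uptake at the cell surface and for lipid loading that are in no list above also differed in the D3 pair. *Lgmn*, which encodes legumain, a lysosomal protease, had 66.5 RPKM in H2A.ZWT EBs and 120 in H2A.ZKD EBs, and *Ctsc*, which encodes cathepsin C, had 14.7 and 31.2. *Folr1*, a folate receptor, had 9.61 and 21.9, *Tfrc*, the transferrin receptor, 34.2 and 58.4, and *Mttp*, which loads lipid onto apolipoprotein B, 6.52 and 15.6. Not all lysosomal genes were higher. Of 8 measured cathepsins 2 were higher (*Ctsh* and *Ctsc*), against 1.91% over all genes, while *Ctsb* had 44.1 and 45.1 RPKM and *Ctsd* 159 and 160. Of 18 V-ATPase genes 0 passed 1.5-fold, against 3.92% in either direction over all genes.

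Among the secreted and surface genes *Srgn*, a granule proteoglycan, had 54.1 RPKM in H2A.ZWT EBs, 116 in H2A.ZKD EBs and 64.7 in H2A.ZAP3 EBs, and *Gpc3*, a glypican, had 57.0, 106 and 41.9. On the lower side *Tuba1b*, an alpha tubulin, had 589, 371 and 611, *Fbl*, which encodes fibrillarin, 250, 163 and 257, and *Taf15*, an RNA-binding protein, 133, 78.2 and 108. These 3 lower genes had positive log2 changes in the D0 pair, of 0.58, 0.58 and 0.68, and only that of *Taf15* passed 1.5-fold. *Ephx2*, a soluble epoxide hydrolase, was lower at both days, with 8.71 and 4.11 RPKM in H2A.ZWT and H2A.ZKD ESCs and 33.9 and 18.5 in EBs. *Eif2s3y*, on the Y chromosome, had 2.17, 0.594 and 0.140 RPKM in H2A.ZWT, H2A.ZKD and H2A.ZAP3 EBs, and *Ddx3y*, on the same chromosome, had 1.07, 0.625 and 0.942.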
